A study of Sus scrofa with 4 samples.

Results

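The enzymes described here handle pyrimidine nucleosides and nucleotides, most of them forms that carry cytosine: cytidine deaminase (CDA), dCMP deaminase (DCTD), the uridine-cytidine kinases UCK1 and UCK2, the UMP/CMP kinase CMPK1, deoxycytidine kinase (DCK), thymidine kinase 1 (TK1), thymidylate synthase (TYMS), the CAD protein and CTP synthase 1 (CTPS1). They were chosen by name, because Bobcat339 is itself a cytosine-based compound, and 10 of the 35248 rows of the deposited expression table carry these names. The series holds 4 RNA-seq libraries of porcine parthenogenetic embryos at the 4-cell stage. All came from oocytes that an electric pulse had activated in the absence of sperm. They were held for 3 h in PZM-3 medium with 7.5 µg/mL cytochalasin B, and culture then went on for 48 h in the same medium, to which albumin (BSA) had been added at 0.4%. The treated group (2 libraries, Bobcat339 1 and 2) received 50 µM Bobcat339, an inhibitor of the TET dioxygenases that oxidise 5-methylcytosine in DNA. The control group (2 libraries, control 1 and 2) received DMSO. The number of embryos pooled in a library, the timing of exposure within the culture and the origin of replicates in separate cultures are not stated by the labels, so the p-values below reflect only how much these 4 libraries vary, which may be technical.

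Cells obtain pyrimidine nucleotides by building them from small precursors, the de novo route, or by phosphorylating free nucleosides, the salvage route. In the de novo route CAD carries out the first steps, dihydroorotate dehydrogenase (DHODH) and UMP synthase (UMPS) complete UMP, and CTP synthase converts UTP to CTP. In salvage, UCK1 and UCK2 phosphorylate uridine and cytidine, DCK phosphorylates deoxycytidine and TK1 phosphorylates thymidine, while CMPK1 adds the next phosphate to UMP, CMP and dCMP. The deaminases CDA and DCTD turn cytosine into uracil at the nucleoside and the monophosphate level, and TYMS methylates the resulting dUMP to dTMP, a precursor of DNA. Cleaving embryos replicate their genome in rapid succession and draw on maternal stores of transcripts and nucleotides.

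No transcript of these enzymes passed the test between Bobcat339 and control embryos, and neither did any of the 18481 tested genes. CMPK1 was the one member for which both treated libraries lay above both controls. It was at 129.5 and 134.3 CPM (counts scaled to library size) against 109.5 and 91.85 CPM. The same order was found for 13.3% of all tested genes, and the CMPK1 difference did not pass either. For 9 of the 10 rows the 2 control libraries differed from each other by more than the groups did, against 70.4% of all tested genes. The row named DCK could not be read as DCK alone, because it joins 2 neighbouring genes.

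The libraries held 13568525 to 14681221 counts, and 3 counts, the level that a count of 0 still allows, corresponded to 0.204 to 0.221 CPM, a floor that covers counting error only. Of 11 oocyte and early embryo markers 10 were matched to a row and all 10 were detected in every library, with summed levels of 11145 to 12596 CPM. They reached from ZAR1 at 6 to 18 counts to BMP15 at 54749 to 63881. Of 6 blood and immune cell markers 5 were matched. These summed to 11.2 and 16.0 CPM in treated and to 13.3 and 13.0 CPM in control embryos. The 12 cumulus and granulosa cell markers summed to 84.7 and 94.1 CPM in treated and to 75.7 and 96.5 CPM in control embryos, of which VCAN made up the most (806 to 1146 counts in a library). HAS2 had 59 to 165 counts and STAR 62 to 126, while AMH was at 0 in all 4 libraries and FSHR at 0 in 3. TNFAIP6 had 7 and 4 counts in treated and 24 and 22 in control embryos (log2 fold change −2.07; edgeR unadjusted p = 0.00958, adjusted p = 0.999). The part of such cells in the values below was not tested. In pooled embryos a lower level of a transcript in each cell and fewer cells that hold it cannot be told apart.

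The row named DCK spans chromosome 8 from 67647857 to 67731081 on the plus strand (ENSSSCG00000008942; coordinates here are those of the table and follow Sscrofa11.1). RefSeq places MOB1B, a kinase activator of the Hippo pathway, at 67647862 to 67702235, so that 100% of MOB1B lies within this row, and the row's own description names MOB1B. RefSeq DCK lies at 67706661 to 67736743, and the row covers 81.18% of it. The next row of the table, SLC4A4, a bicarbonate cotransporter, begins at 67706874 and covers 99.29% of RefSeq DCK, although RefSeq starts SLC4A4 itself only at 67768955. Reads of DCK may therefore be counted in either row or in neither. The DCK row had 413 and 389 counts in the Bobcat339 libraries and 431 and 388 in the controls, and the SLC4A4 row had 1939 and 1815 against 1455 and 1774. How many of these reads belong to DCK was not tested, and the row is kept below as "the DCK row". Of the other members, 3 overlap another row: UCK1 overlaps POMT1 (1 to 4 counts in a library), TYMS overlaps ENOSF1 (0 to 9) and TK1 overlaps SYNGR2 (0 to 2). The shared genomic stretches were 1633 bases for UCK1, 2733 for TYMS and 3231 for TK1. Reads there may also be counted in either row or in neither, and the effect on the levels below was not tested.

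Levels can be compared between genes only per length, and the authors' FPKM values (counts scaled to transcript length and library size) placed the members in 3 tiers by their mean over the 4 libraries. CDA (43.5 ± 15.4 FPKM; SD over the 4 libraries), TYMS (34.6 ± 5.64), CMPK1 (33.8 ± 5.88), UCK2 (32.4 ± 8.04) and CTPS1 (30.4 ± 6.26) formed the upper tier, and each of these overlapped its neighbour in the order. TK1 (11.04 ± 2.98 FPKM), DCTD (8.14 ± 2.15) and CAD (7.84 ± 2.04) followed, again with overlapping ranges. The DCK row (3.19 ± 0.0987 FPKM) and UCK1 (2.49 ± 0.730) were lowest, and their ranges overlapped as well. Between the tiers the ranges of deposited FPKM did not overlap: the lowest CTPS1 value was 22.3 FPKM and the highest TK1 value 13.7 FPKM, and the lowest CAD value was 6.54 FPKM against a highest DCK row value of 3.33 FPKM. By mean FPKM, CDA stood at the 92.0th percentile of the 18481 tested genes and UCK1 at the 40.8th. For 6 of the 10 rows the FPKM rests on a shorter length than the one listed, most of all for CTPS1 (4636 against 15337 bases), and the labels do not say how the authors chose it. The place of CTPS1 depends on this length: per listed length it had a mean of 9.19 (6.73 to 10.7 over the libraries), which lies among CAD (7.84), TK1 (7.50) and DCTD (6.60) instead of the upper tier. On that scale CMPK1 stood at 22.7 and TYMS at 20.5, below UCK2 at 32.4.

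**Figure D1:**
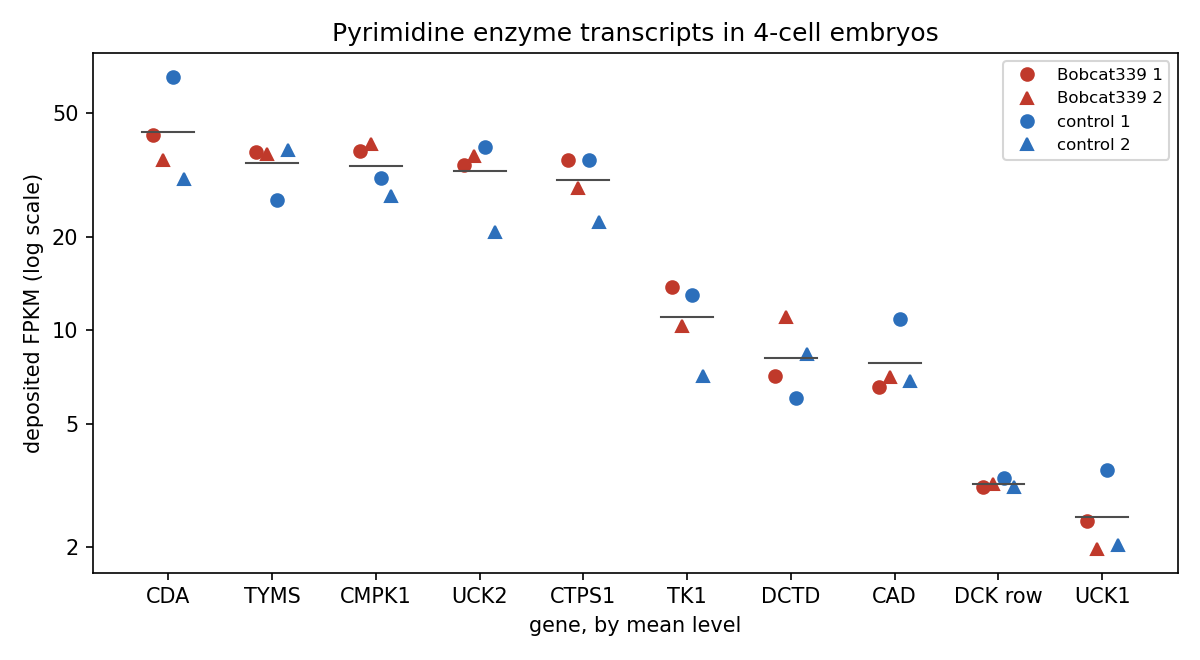
Deposited FPKM (log axis) of the 10 rows in each library, ordered by mean level; red marks Bobcat339, blue marks control, circles replicate 1, triangles replicate 2 and the dark line the mean of the 4 libraries. CDA to CTPS1 lie between 20.7 and 65.4 FPKM, TK1 to CAD between 6.05 and 13.7, and the DCK row and UCK1 between 1.97 and 3.55.

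Cytidine deaminase, CDA (ENSSSCG00000021259, chromosome 6: 78824248 to 78849547, plus strand), had the highest mean FPKM of the members over the 4 libraries and the widest spread between controls. In deposited FPKM that rank rests on control 1: without it CDA averaged 36.2 FPKM and TYMS 37.4 FPKM. The order of CDA and TYMS also depends on length. Per listed length TYMS reached at most 22.5 in a library, while CDA had at least 30.7. CDA stood at 38.1 and 31.3 CPM with Bobcat339 and at 60.3 and 27.2 CPM without it, so that both treated libraries lay between the controls, which differed 2.22-fold. CDA thus had a log2 fold change of −0.34 (standard error, SE, 0.36; 95% interval −1.10 to 0.43; edgeR quasi-likelihood, Benjamini-Hochberg adjusted p = 0.999). Without control 1 the value was 0.35 and without control 2 it was −0.77. DCTD, which feeds dUMP to thymidylate synthesis (ENSSSCG00000015775, chromosome 15: 44466304 to 44492773, minus strand), had 16.6 and 25.4 CPM against 14.5 and 19.4 CPM. Here Bobcat339 2 was highest and control 1 lowest, the groups overlapped, and the log2 fold change was 0.31 (95% interval −0.42 to 1.03). It was 0.02 without Bobcat339 2, 0.11 without control 1, 0.58 without Bobcat339 1 and 0.55 without control 2. CDA exceeded DCTD in every library, by FPKM ratios of 6.0006 and 3.21 in the Bobcat339 libraries and 10.8 and 3.66 in the controls.

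The uridine-cytidine kinases catalyse the same step but stood far apart in level. UCK2 (ENSSSCG00000039867, chromosome 4: 84838802 to 84919236, minus strand) exceeded UCK1 (ENSSSCG00000005717, chromosome 1: 271446726 to 271453855, minus strand) by 13.994 and 18.4 times in the Bobcat339 libraries and by 10.9 and 10.197 times in the controls, as ratios of FPKM. This ratio was higher in both treated libraries than in both controls. So were CTPS1 to CAD (5.40 and 4.07 against 3.24 and 3.24) and CMPK1 to CDA (0.886 and 1.12 against 0.473 and 0.880). The other ratios taken overlapped between the groups. They were CDA to DCTD, TYMS to TK1, TYMS to DCTD, CMPK1 to UCK2, CTPS1 to CTPS2 and TK1 to TK2. UCK1, CAD and CDA, the denominators of the ratios that lay apart, each had control 1 as the highest library. Single genes lay apart, in either direction, for 29.3% of all tested genes. No such share was taken over ratios, and no ratio was tested. UCK2 was at 165.4 and 174.9 CPM in treated embryos, between control 1 at 194.5 and control 2 at 100.2 CPM. The log2 fold change of UCK2 was 0.21 (SE 0.31; 95% interval −0.44 to 0.86), and it was 0.76 without control 1 and −0.16 without control 2. UCK1 was at 8.79 and 7.07 CPM against 13.3 and 7.30 CPM. Control 1 alone stood high for UCK1, the remaining 3 libraries lay close together, and the log2 fold change was −0.37 (95% interval −1.19 to 0.44) with them all and 0.12 without control 1.

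CMPK1, which takes the products of these kinases to the diphosphate (ENSSSCG00000003885, chromosome 6: 164160916 to 164197327, minus strand), had the smallest p of the members. The treated libraries averaged 132 ± 3.42 CPM and the controls 101 ± 12.5 CPM (SD, n = 2 each). CMPK1 differed by 0.39 on the log2 scale (SE 0.27; 95% interval −0.19 to 0.97; edgeR unadjusted p = 0.171, adjusted p = 0.999). Both treated libraries lay above both controls, and leaving out each library in turn gave log2 fold changes between 0.30 and 0.52. Groups that do not overlap, with Bobcat339 higher, were found at 13.3% of all tested genes, so that 1 member in 10 is near the background. The pattern of CMPK1 over the 4 libraries, as centred log2 CPM, was most like that of ADI1, PPM1A and KLHL5 among 7832 genes with a symbol and a mean of at least 5 CPM, with sums of squared differences of 3.1112e-04, 0.0012243 and 0.0012924. With 4 libraries such likeness is a description only.

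Of the kinases for deoxynucleosides, the DCK row varied least and TK1 (ENSSSCG00000037120, chromosome 12: 3785937 to 3797912, plus strand) differed within both groups. The DCK row had 28.1 and 28.3 CPM in treated embryos and 30.9 and 27.8 CPM in the controls. For this row the log2 difference was −0.05 (SE 0.31; 95% interval −0.71 to 0.60). How far that value describes DCK rather than MOB1B was not tested. TK1, an enzyme of S phase, had 61.6 and 45.8 CPM against 59.8 and 31.7 CPM. The first library of each group was the higher one, by 1.35-fold in the treated and 1.88-fold in the control group. The log2 fold change of TK1 was 0.23 (95% interval −0.49 to 0.95), and it was 0.76 without control 1 and −0.12 without control 2. Its mitochondrial counterpart TK2 stood lower, at 2.33 ± 0.112 FPKM (SD over 4 libraries), and TK1 exceeded it by 2.90 to 5.97 times.

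TYMS (ENSSSCG00000040678, chromosome 6: 105642381 to 105660601, minus strand) showed the opposite arrangement of the controls. It was at 87.3 and 85.4 CPM in treated embryos, at 87.9 CPM in control 2 and at 63.1 CPM in control 1, which alone stood low. The log2 fold change of TYMS was 0.19 (SE 0.29; 95% interval −0.42 to 0.81), and without control 1 it was −0.03.

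In the de novo route, CAD (ENSSSCG00000028978, chromosome 3: 111887294 to 111914302, minus strand) had the lowest log2 fold change of the members, −0.42 (SE 0.32; 95% interval −1.09 to 0.26; edgeR adjusted p = 0.999). CAD was at 43.3 and 46.1 CPM in treated embryos, at 45.1 CPM in control 2 and at 74.2 CPM in control 1. Control 1 alone stood high: without it the value was −0.01, and without control 2 it was −0.70. CTPS1 (ENSSSCG00000003973, chromosome 6: 170201751 to 170233074, minus strand) had 163.9 and 131.5 CPM against 168.7 and 102.4 CPM. The log2 difference of CTPS1 was 0.12 (95% interval −0.50 to 0.75). Again the first library of each group was the higher one. CTPS1 was the more abundant CTP synthase of these embryos, exceeding CTPS2 (0.420 ± 0.127 FPKM) by 55.3 to 97.8 times in deposited FPKM. UMPS, the enzyme that completes UMP, was at 38.5 and 30.7 FPKM against 58.5 and 32.9 FPKM, with control 1 highest as for CAD.

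**Figure D2:**
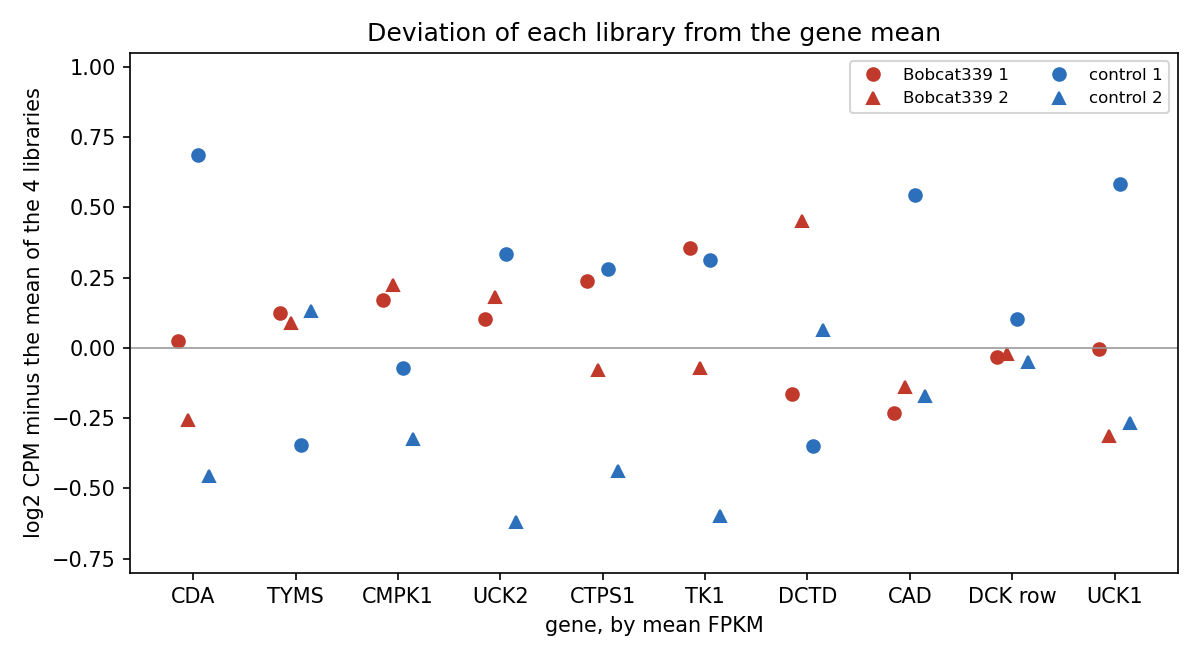
Deviation of each library from the mean of the gene over the 4 libraries, in log2 CPM, for the 10 rows (red Bobcat339, blue control, circles replicate 1, triangles replicate 2). Control 1 is highest for 6 rows (32.7% of all tested genes) and control 2 lowest for 6 (5248 of 18481 tested genes). The treated libraries of 9 rows overlap the control range or lie within it. Of all tested genes 29.3% show no overlap.

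Across the members, 0 of 10 passed the edgeR quasi-likelihood test at a Benjamini-Hochberg adjusted p of 0.05 (background 0% of 18481 genes). With DESeq2 0 of 10 passed (background 0.0167%), and with limma-voom 0 of 10 (background 0%). At an unadjusted edgeR p under 0.05 there were 0 of 10, where the background was 4%. All 10 rows had passed the filter on low counts. The log2 fold change was above 0 for 6 rows and below 0 for 4, with a median of 0.16 and a range of −0.42 to 0.39, while 47.1% of all tested genes were above 0 and their median was −0.02. The bounds of the 10 intervals reached from −1.19 to 1.03, which is the room these libraries leave for differences. On counts simulated with 1 common spread for all genes, the same test recovered 83.7% of genes changed 4-fold and 8.42% of genes changed 2-fold. It also called 7 unchanged genes. The libraries themselves differed in spread, with a median absolute log2 difference of 0.50 in the control pair and 0.27 in the Bobcat339 pair. The simulated rates are therefore no measure of what each member could pass.

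For most members, as for most tested genes, the control pair differed by more than the groups did. The groups did not overlap for 1 of 10 rows, against 29.3% of all tested genes. The control pair differed by more than the fitted difference between groups for 9 of 10 rows, against 70.4% of all tested genes, the exception being CMPK1. Control 1 lay above control 2 for 8 rows, all but TYMS and DCTD, against 49.8% of all tested genes. These counts describe the members and were not tested.

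**Figure D3:**
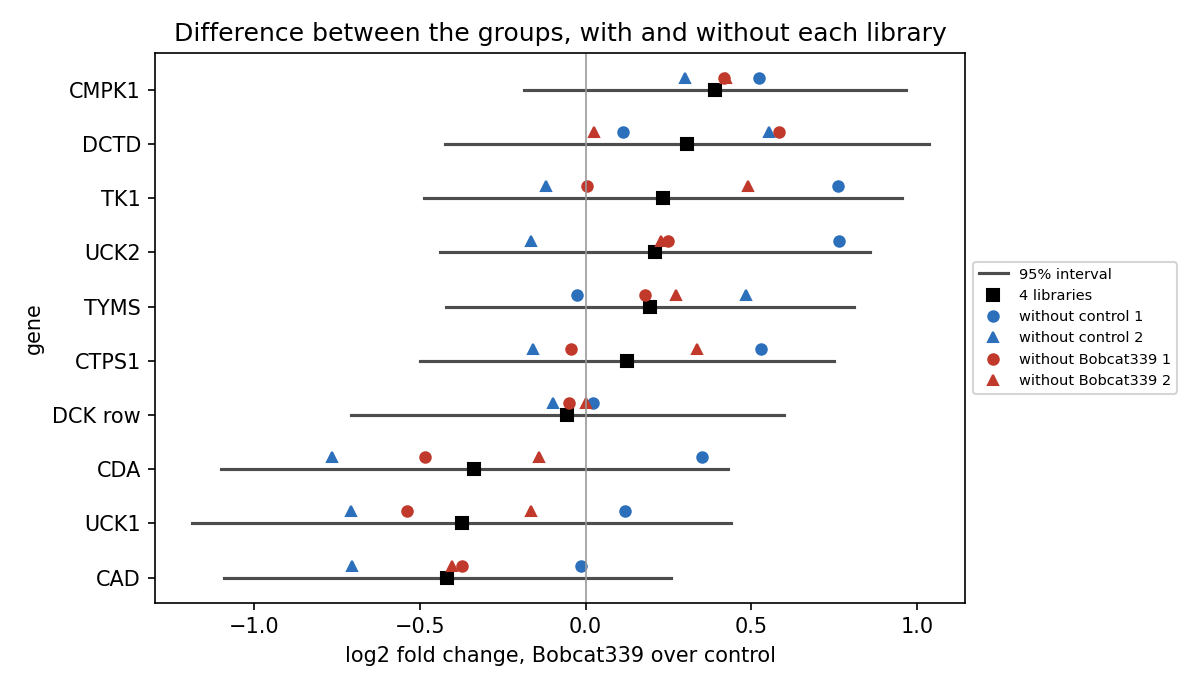
Log2 fold change of Bobcat339 over control for each row (black square) with its 95% interval (line), and the value without each library in turn (coloured markers). All 10 intervals contain 0, and CDA, UCK1, UCK2, CTPS1, TK1, TYMS and the DCK row change sign when 1 library is left out.

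The wider pyrimidine pathway was read from a list of 52 further genes in 11 role classes, of which 51 were matched to a row and 44 passed the filter on low counts. With edgeR 0 of 44 passed at an adjusted p of 0.05 (background 0% of all tested genes), and with limma-voom 0 of 44 (background 0%). With DESeq2, run without that filter, 0 of 50 passed (background 0.0167%). At an unadjusted edgeR p under 0.05 there were 0 of 44, where the background was 4%. The log2 fold change was above 0 for 13 and below 0 for 31, with a median of −0.16. Of all tested genes 47.1% were above 0, with a median of −0.02. The groups did not overlap for 14 of 44, 6 with Bobcat339 higher and 8 with Bobcat339 lower, where the background was 13.3% and 16% in these directions. Left out by the filter were NME3, NME4, APOBEC1, APOBEC2, NT5C1A, UPP2 and SLC29A2, with 0 to 11 counts in a library. The row matched to UCKL1 carries the name ZNF512B in the table and is uncertain.

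Ribonucleotide reductase, which makes deoxynucleotides from ribonucleotides, was among the more abundant enzymes of the list. RRM2B, its p53-inducible small subunit, was at 88.6 ± 10.6 FPKM, the large subunit RRM1 at 53.8 ± 12.3 FPKM and the S phase small subunit RRM2 at 45.0 ± 12.3 FPKM (SD over 4 libraries). RRM1 had 103 and 105 CPM in treated embryos and 143 and 164 CPM in control embryos, without overlap, as did 16% of all tested genes in this direction. Its log2 fold change was −0.56 (95% interval −1.13 to 0.01; edgeR unadjusted p = 0.0525, adjusted p = 0.999), and RRM1 is named here after its values were seen. The small subunits had log2 fold changes of −0.01 (RRM2B) and 0.01 (RRM2).

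In the remaining classes the gene with the highest mean level was as follows. DCTPP1, a pyrophosphatase that clears modified dCTP such as 5-methyl-dCTP from the nucleotide pool, had the highest level of the whole list at 108 ± 19.9 FPKM, with a log2 fold change of −0.30 (95% interval −0.84 to 0.24). SHMT2, a mitochondrial enzyme of the folate cycle that supplies TYMS, was at 80.1 ± 9.43 FPKM (log2 fold change −0.20), and UMPS was at 40.2 ± 12.6 FPKM (−0.43). The mitochondrial pyrimidine nucleotide carrier SLC25A36 was at 37.9 ± 4.57 FPKM, with 41.7 and 42.0 FPKM in the Bobcat339 libraries and 34.0 and 33.8 in the controls, and its log2 fold change was 0.28 (95% interval −0.23 to 0.78). The nucleoside diphosphate kinase NME2, which shares much of its sequence with NME1, so that reads could be split between them, was at 25.2 ± 4.17 FPKM (−0.38). Lower levels were found for the deaminase CDADC1 (10.5 ± 1.70 FPKM, −0.03), DPYS of pyrimidine breakdown (9.59 ± 2.84 FPKM, −0.07), the homolog of uracil phosphoribosyltransferase UPRT (8.91 ± 3.61 FPKM, −0.25), the nucleotidase NT5C2 (8.86 ± 1.91 FPKM, −0.18) and the mitochondrial deoxyguanosine kinase DGUOK (7.06 ± 1.11 FPKM, −0.20). None of these 10 genes passed (edgeR adjusted p = 0.999 each). UMPS passed as lower only when control 2 was left out (log2 fold change −0.77, edgeR adjusted p = 0.0141), a setting in which 4.22% of all tested genes passed.

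**Figure D4:**
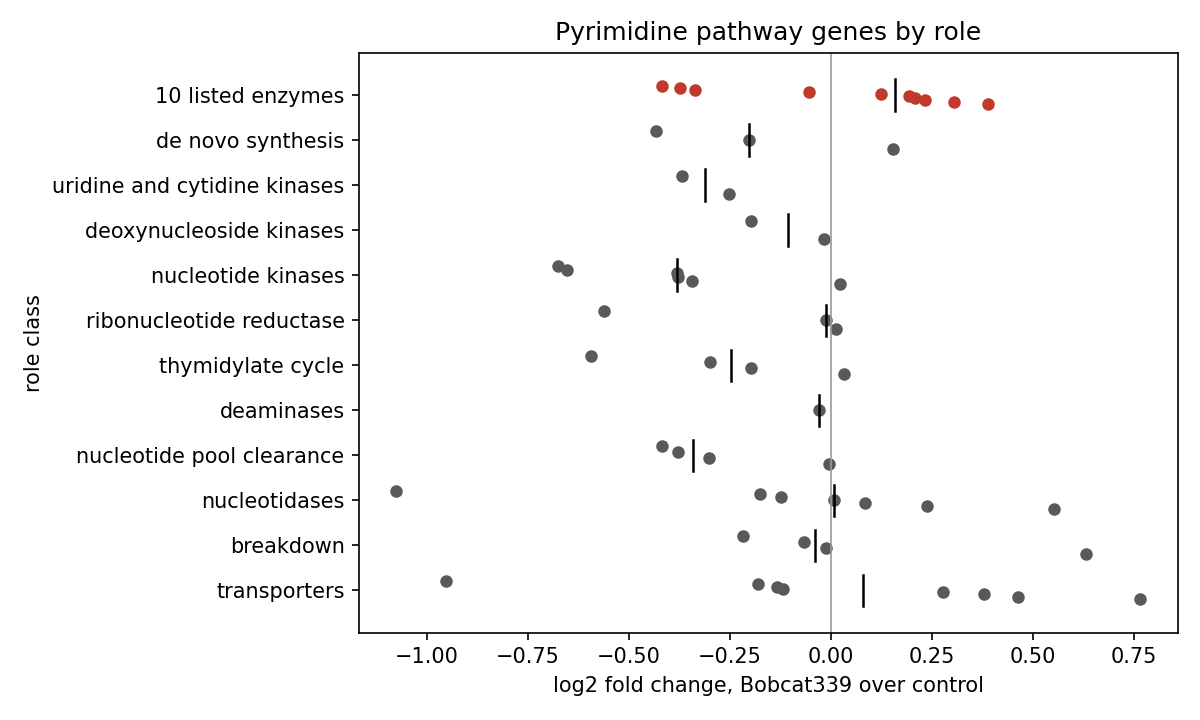
Log2 fold change of Bobcat339 over control for the 10 listed enzymes (red) and the 44 tested genes of the wider list by role class (grey), with the class median as a black line. The listed enzymes lie on both sides of 0 between −0.42 and 0.39, and none of the points passed the test.

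By class, the median log2 fold change of the 6 tested nucleotide kinases was −0.38 with 5 below 0, and the 4 genes of nucleotide pool clearance had −0.34 with 4 below 0. The 8 tested transporters had a median of 0.08 with 4 above 0, the 7 nucleotidases 0.01 with 4 above 0, and the 4 breakdown genes −0.04 with 1 above 0. The class listed as uridine and cytidine kinases had −0.31. It held only the uncertain UCKL1 row (−0.37) and UPRT (−0.25), a homolog of uracil phosphoribosyltransferase rather than a kinase. UCK1 and UCK2 are counted with the members instead. The 4 genes of the thymidylate cycle had −0.25 and the 3 of de novo synthesis −0.20. The 2 deoxynucleoside kinases had −0.11, ribonucleotide reductase −0.01 and the 1 tested deaminase −0.03. Of all tested genes 47.1% were above 0, and their median was −0.02. The classes were not tested against it. The main concentrative nucleoside carrier by level was SLC28A3, at 19.6 and 15.6 FPKM in the Bobcat339 libraries and 23.7 and 13.64 FPKM in the controls, with overlapping groups. Of the equilibrative carriers SLC29A4 stood at 7.61 ± 1.92 FPKM, SLC29A3 at 2.34 ± 0.388 and SLC29A1 at 0.786 ± 0.105 (SD over 4 libraries). Both treated libraries lay above both controls for SLC29A4 (log2 fold change 0.46, 95% interval −0.28 to 1.21) and SLC29A3 (0.38, −0.37 to 1.13). Of all tested genes 13.3% did so, and neither carrier passed (edgeR adjusted p = 0.999 each). The SLC29A4 controls, at 15.1 and 9.02 CPM, differed by 0.745 on the log2 scale, more than the groups did. These 4 carriers are named after their values were seen. The authors' own pathway label for pyrimidine metabolism covers 88 rows, among them 8 of the 10 members and also polymerase subunits. Of its 78 tested rows 0 passed with edgeR, and 3 had an unadjusted p under 0.05, a share near the 4% of all tested genes. They were all lower: the DNA polymerase delta subunits POLD1 (−1.23) and POLD2 (−1.22) and the RNA polymerase I subunit ZNRD1 (−0.94). Its median log2 fold change was −0.16 with 26 above 0 and 52 below 0, where 47.1% of all tested genes were above 0. Within that label control 1 was the highest library for 47 of 78 rows, against 32.7% of all tested genes.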

How the data were processed

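The authors deposited raw read counts and FPKM for each gene and library, per the file headers. Tools named without roles in the submitters' processing notes are HISAT2 2.0.5, HTSeq, Trimmomatic and DESeq2 1.16.1, with the build Sscrofa10.2. The table's coordinates were compared with RefSeq Sscrofa11.1 for 14155 symbols, and 98.8% lie on the same gene there, so they are named by Sscrofa11.1. Per the labels, libraries were made with Smart-seq2, which does not mark strand and carries no molecular identifiers. The deposited FPKM match the listed length within 0.1% for 59.4% of rows with counts.

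Here edgeR 4.0.16 in R 4.3.3 was run on the counts of all 4 libraries (filterByExpr with a minimum count of 10, TMM, glmQLFit, glmQLFTest, Benjamini-Hochberg at 0.05). It left 18481 of 35248 rows with 99.7% of the counts. The common biological coefficient of variation was 26.4%. Printed CPM are TMM-normalised, and standard errors and 95% intervals come from the F statistic. The script was tested on simulated data. Alternatives were DESeq2 1.42.0, limma-voom (limma 3.58.1), edgeR with no scaling or with DESeq2 size factors, a filter of at least 5 CPM in 2 libraries or none, a replicate block and leaving out each library. Of the 52 genes of the wider list 42 were matched by name and 9 by Ensembl or NCBI number. Named were all members, genes of the wider list with an unadjusted p under 0.05, the gene with the highest mean FPKM in each class, and the 3 genes most like the member with the smallest p. TK2, CTPS2, DHODH, UCKL1, RRM1, RRM2, SLC28A3, SLC29A1, SLC29A3, SLC29A4, the genes left out by the filter and those of the authors' pathway label were named outside this rule, after their values were seen. Members and lists were chosen with earlier results of these data known. One gene planned for the wider list was left out of all counts and is not reported here. No sequences were used here.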

Additional observations from a re-analysis of the deposited data

How the results depend on the processing

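Outside the replicates left out, the 10 members kept the sign of the log2 fold change in 70 of 70 values under DESeq2, limma-voom, both other scalings, both other filters and the replicate block, and 0 of 10 passed in each of these. Over all genes, edgeR called 0, DESeq2 5 and the replicate block 44. Libraries with the same number deviated together only weakly (r = 0.16 across genes), and with 2 pairs that no label ties together, this is no evidence of pairing. Leaving out 1 library, with the remaining library of that group assumed to vary like the other group, gave 0 to 780 genes in all (11 without control 1 and 780 without control 2), 0 of 10 members and 0 to 1 of the wider list (UMPS, without control 2). Of 40 such values of the members 9 changed sign. Without control 1 the log2 fold change was 0.35 for CDA, −0.026 for TYMS, 0.024 for the DCK row and 0.12 for UCK1. Without control 2 it was −0.16 for UCK2, −0.16 for CTPS1 and −0.12 for TK1. It was −0.04 for CTPS1 without Bobcat339 1 and 4.4e-04 for the DCK row without Bobcat339 2. With leave-one-out the lowest and highest values were −0.77 and 0.35 for CDA, −0.026 and 0.48 for TYMS, −0.16 and 0.76 for UCK2, −0.16 and 0.53 for CTPS1, −0.12 and 0.76 for TK1, −0.10 and 0.024 for the DCK row, −0.71 and 0.12 for UCK1, 0.025 and 0.58 for DCTD, 0.30 and 0.52 for CMPK1 and −0.70 and −0.01 for CAD. The smallest adjusted p of a member was 0.0564 (CDA, without control 2). The cause of these changes was not tested. With 2 libraries a group, the standard errors of the members ran from 0.27 (CMPK1) to 0.38 (UCK1). UCK1 was also the member with the fewest counts, 97 to 185. What part of these errors comes from depth and what part from the spread between libraries was not tested.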
